A study of Mus musculus with 8 samples.

Results

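The 9 genes described here encode the main carriers that take dietary amino acids and small peptides through the enterocyte, and they were picked by name (Slc6a19, Slc15a1, Slc1a1, Slc3a1, Slc7a9, Slc3a2, Slc7a7, Slc7a8 and Slc6a14) out of 25239 genes in the deposited table. To ask how the absence of CD1d, and of the natural killer T (NKT) cells that need it, alters intestinal epithelial cells (IECs), the study profiled 4 CD1d-KO and 4 WT samples by bulk RNA-seq. The sort kept EpCAM+ cells that lacked CD45, CD31 and Ter119, from untreated crypt preparations of the proximal small intestine. CD1d-KO mice are labelled CD1d1/2 KO, which names both mouse Cd1d genes, and WT mice are labelled C57BL/6Jax. Per the study's methods the samples came from 4 mice of each genotype, and its mice were young adults matched for age and sex. The Y-linked counts given below differed between the groups. The series' design text adds that they came from 2 experiments, and the labels give neither the sex nor the experiment of a sample.

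Protein digestion in the gut lumen leaves free amino acids and short peptides. Carriers in the brush border, the apical face of the enterocyte, bring them in with sodium or protons, and other carriers in the basolateral membrane pass them on to the blood, largely by exchange. Several of the exchangers work only as a pair, in which a heavy chain of the Slc3 family brings a light chain of the Slc7 family to the membrane and the light chain does the transport. Most of these genes are induced as cells leave the crypt and mature on the villus.

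Depth and identity of the samples set the frame for the transporter values. Total counts per sample ran from 23610266 to 31629435. Cd1d1, the targeted gene, stood at 8, 3, 5 and 0 counts in the CD1d-KO libraries and at 81, 70, 94 and 50 in the WT libraries, in the order of their sample numbers, which holds for all per-sample values given here. Cd1d2 stood at 0, 0, 2 and 0 against 3, 3, 5 and 4. The 7 epithelial markers were abundant in both groups, with summed normalised counts (counts divided by the sample's size factor) of 317300 to 339800 in CD1d-KO and 307400 to 341700 in WT. Of the markers of erythroid cells, 5 of 6 never passed 10 counts in a sample, and the same held for 9 of 10 of endothelium and stroma and for 8 of 10 of exocrine pancreas. Genes on chromosome Y had 6235 and 7293 counts in CD1d-KO 1 and 2 and at most 1 in each other sample, so every sample with Y-linked counts was CD1d-KO. By these counts the sequenced groups were not matched for sex, although the methods state such matching. Effects of sex and of genotype can therefore only partly be told apart here. Nnt, which carries a known deletion in the C57BL/6J strain, averaged 4684 ± 291 normalised counts in CD1d-KO (SD, n = 4) against 1828 ± 65.7 in WT, so effects of strain background and of the CD1d deletion cannot be told apart here. Of 15446 genes tested by DESeq2, 622 were called at an adjusted p under 0.05, which is 4.03%. Lower in CD1d-KO were 2.38% of the tested genes and higher were 1.65%.

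The transporters lie on 6 chromosomes, in coordinates of the mm10 annotation that the table's header names. For the genes that the results turn on, the 250 bases before a start annotated by RefSeq are shown from its promoter table (GRCm38.p6, the assembly of mm10), to set the controlling sequence of the transporters beside their expression. Capitals mark the motifs found by a search of both strands for 5 words, namely CAAAGTCCA (a core of the HNF4 site), GTTAAT (part of an HNF1 site), TTCNNNGAA (STAT), GGGCGG (bound by Sp1) and TATAAA (the core promoter element). Slc6a14, chrX:21714650-21714899, plus strand, the transporter with the called difference, came first, followed by the peptide carrier, the neutral amino acid carrier and both subunits of the cystine exchanger.
Slc6a14: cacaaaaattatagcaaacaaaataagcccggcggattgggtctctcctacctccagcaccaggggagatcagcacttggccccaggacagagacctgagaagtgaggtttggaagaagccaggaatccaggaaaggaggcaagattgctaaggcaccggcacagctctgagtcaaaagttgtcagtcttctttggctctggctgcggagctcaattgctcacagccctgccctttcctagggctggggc
Slc15a1: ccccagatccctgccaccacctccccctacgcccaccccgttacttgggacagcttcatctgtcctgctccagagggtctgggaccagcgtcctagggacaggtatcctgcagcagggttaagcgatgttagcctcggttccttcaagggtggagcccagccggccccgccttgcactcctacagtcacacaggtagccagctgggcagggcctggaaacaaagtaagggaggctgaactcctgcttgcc
Slc6a19: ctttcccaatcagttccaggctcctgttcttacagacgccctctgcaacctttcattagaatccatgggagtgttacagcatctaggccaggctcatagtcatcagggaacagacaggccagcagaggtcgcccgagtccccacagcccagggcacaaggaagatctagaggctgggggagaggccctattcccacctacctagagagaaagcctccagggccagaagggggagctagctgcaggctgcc
Slc3a1: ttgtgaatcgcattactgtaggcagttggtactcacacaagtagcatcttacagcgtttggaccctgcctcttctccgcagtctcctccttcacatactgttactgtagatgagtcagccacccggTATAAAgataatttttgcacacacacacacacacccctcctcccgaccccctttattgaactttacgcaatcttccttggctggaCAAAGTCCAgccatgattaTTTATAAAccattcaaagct
Slc7a9: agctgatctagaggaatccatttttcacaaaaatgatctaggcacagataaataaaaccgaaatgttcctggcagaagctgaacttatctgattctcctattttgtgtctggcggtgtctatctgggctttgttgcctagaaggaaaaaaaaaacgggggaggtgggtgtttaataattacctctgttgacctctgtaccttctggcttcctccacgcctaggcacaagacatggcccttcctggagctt
All 9 transporters matched the table, with 14 windows, 5 of them for Slc7a7 and 2 for Slc7a9, whose first window is shown. The windows shown are chr14:121505255-121505504, minus strand, for Slc15a1 and chr13:73692637-73692886, minus strand, for Slc6a19. For Slc3a1 the window is chr17:85028097-85028346 and for Slc7a9 it is chr7:35448842-35449091, both on the plus strand. The RefSeq start of Slc6a19 lies inside the span that the count table gives the gene (chr13:73679745-73700780), so its window is not upstream of the whole counted locus, and the same holds for Slc3a2. The windows of Slc6a14, Slc15a1, Slc6a19 and Slc7a9 held none of the 5 words. The Slc3a1 window held CAAAGTCCA 39 bases before the start, a word that 0.384% of 32841 promoter windows in the table contain. It also held TATAAA with its first base 124, 20 and 18 bases before the start, the last pair being one overlapping run read on both strands. TATAAA occurred in 12.4% of all windows. Of the other transporters, Slc7a8, Slc3a2 and Slc1a1 held GGGCGG, as did 2 of the 5 windows of Slc7a7 and 32.7% of all windows. GTTAAT was in 1 of the 14 windows, of Slc7a7, and TTCNNNGAA in none, against 6.43% and 7.02% of all windows. A match of letters is a description of this window only.

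Compared per exon length, in TPM (counts per kilobase of exon, scaled to the same total in every sample), the transporters fell into 8 abundant genes and 1 rare one. Slc7a8, the basolateral exchanger of neutral amino acids, was the highest at a mean of 165.3 TPM over the 8 samples, ahead of 94.5% of the 19088 genes with counts. Slc7a9, the light chain of the apical cystine exchanger, followed at 149.4 TPM and Slc3a2, the basolateral heavy chain, at 130.2 TPM. Next came Slc1a1, the apical carrier of glutamate and aspartate, at 113.5 TPM, then Slc7a7, which exports basic amino acids across the basolateral membrane, at 104.2 TPM. Slc3a1, the heavy chain of the cystine exchanger, stood at 85.8 TPM. Slc15a1, the proton-coupled carrier of di- and tripeptides, reached 57.0 TPM and Slc6a19, the sodium-coupled carrier of neutral amino acids, 43.4 TPM. Slc6a14, a sodium- and chloride-coupled carrier of neutral and basic amino acids that is usually sparse in healthy small intestine, was at 0.450 TPM, 96.5-fold below Slc6a19. In WT samples the ranges of neighbours in this order overlapped for Slc7a8 and Slc7a9, for Slc1a1 and Slc7a7, for Slc7a7 and Slc3a1, and for Slc15a1 and Slc6a19. They did not overlap for Slc7a9 and Slc3a2, for Slc3a2 and Slc1a1, for Slc3a1 and Slc15a1, or for Slc6a19 and Slc6a14. In CD1d-KO samples the ranges of all neighbours overlapped except for Slc7a7 and Slc3a1 and for Slc6a19 and Slc6a14. TPM values were made from exon lengths of the annotation, so unequal use of exons would move this order. Exons shared with another gene, 26.3% of the length of Slc3a1 and 9.1% of that of Slc7a7, could also move it.

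**Figure D1:**
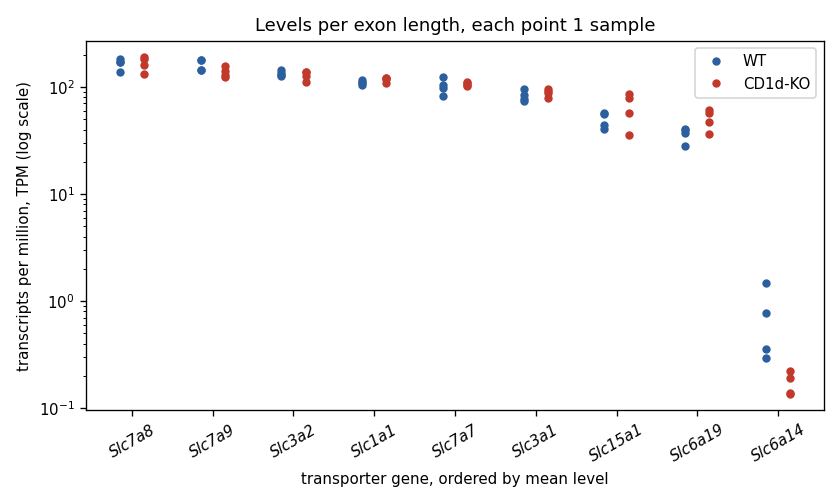
Level of each transporter in each sample, in TPM on a log axis, ordered by the mean over the 8 samples, with WT in blue and CD1d-KO in red and each point 1 sample. Mean levels of 8 transporters lie between 43.4 and 165.3 TPM, while Slc6a14 lies at 0.450 TPM with all CD1d-KO samples below all WT samples.

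Comparison of genotypes called 1 of the 9 transporters, Slc6a14, which was lower in CD1d-KO IECs. Over all tested genes 4.03% were called, and 2.38% were called lower. All 9 were tested, 6 with a positive and 3 with a negative log2 fold change (CD1d-KO over WT), and their median was 0.07 beside 0.00 over all genes tested. An unadjusted p under 0.05 was reached by 3 of the 9 (Slc6a14, Slc6a19 and Slc7a9) and by 15.3% of all tested genes. The groups did not overlap for 1 transporter and for 9.61% of all tested genes. In bulk samples, fewer cells of a type and less RNA per cell cannot be told apart.

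Slc6a14 had the largest difference. It was counted 10, 8, 6 and 6 times in the CD1d-KO libraries, 30 in all, and 15, 59, 33 and 10 times in the WT libraries, 117 in all. After normalisation the CD1d-KO samples held 8.94, 7.62, 5.87 and 5.76 and the WT samples 14.7, 61.8, 32.0 and 12.2. Every CD1d-KO sample lay below every WT sample, and WT 2 alone held 59 of the 117 WT counts. The means were 7.05 ± 1.52 (SD, n = 4) and 30.2 ± 22.9, which is 0.233-fold with a 95% interval from 0.108 to 0.503, or -2.10 ± 0.57 on the log2 scale (SE), at a DESeq2 adjusted p of 0.00992. These counts were few, and a count of 10 has a counting error of 31.6%. Without WT 2 the log2 fold change was -1.49 and was no longer called (DESeq2 adjusted p = 0.216), with 2.35% of all genes called. The edgeR quasi-likelihood test, which called 1.66% of its genes, gave -2.09 with an adjusted p of 0.0788, and over 16 alternatives adjusted p-values ran from 0.00228 to 0.356, with 11 calls.

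Slc6a14 is known to be raised in inflamed gut epithelium, and genes of epithelial inflammation were also lower in CD1d-KO IECs. Of the 13 genes in the list, 10 were called lower in CD1d-KO and none higher, with a median log2 fold change of -1.64. The share called lower over all tested genes was 2.38%. Duoxa2 and Duox2, which form an epithelial source of hydrogen peroxide, fell by 1.64 and 1.20 on the log2 scale, and Nos2, the inducible nitric oxide synthase, fell by 1.89. The chemokine Ccl20, the ubiquitin-like Ubd and the antimicrobial lectin Reg3g fell by 1.50, 2.36 and 1.25. Summed normalised counts of the list were 29550 to 47230 in CD1d-KO and 49920 to 112900 in WT. Its score, the mean centred log2 level of its genes, was highest in WT 1 (1.48), followed by WT 2 (1.003), WT 3 (0.587) and WT 4 (0.250), whereas Slc6a14 was highest in WT 2. The list was chosen with earlier results of these data known, so its lower levels are a description and no independent support. The part of these genes in the Slc6a14 difference was not tested.

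Markers of other tissues also moved with genotype. Of 16 stomach markers, 14 were tested, 6 were called lower (Vsig1, Anxa10, Muc6, Ctse, Cldn18 and Muc5ac) and 1 higher (Atp4a), with summed normalised counts of 833.8 to 1746 in CD1d-KO and 2703 to 17800 in WT. The parietal cell gene Atp4b never passed 10 counts. Among all tested genes 2.38% were called lower and 1.65% higher. The stomach score was highest in WT 3 (3.25) and WT 4 (2.23), and stood at 0.923 in WT 2, where Slc6a14 peaked. It was -2.58, -2.45, -2.36 and 0.214 in the CD1d-KO samples, all below the lowest WT value of 0.78 in WT 1. The score thus largely follows genotype, and a fit with both separates them poorly. With this score as a covariate, where 0.703% of all genes were called, Slc6a14 had a log2 fold change of -2.70 ± 1.13 (DESeq2 adjusted p = 0.356). Its SE without the covariate was 0.57, so the lost call cannot be read as an effect of the score. Of 16 leukocyte markers, 13 were tested and 3 were called lower (Jchain, Cd8a and Cd3g), with sums of 141.9 to 268.8 against 231.1 to 1296, while Cd8b1 and Csf1r never passed 10 counts. The part of leukocyte RNA in the Slc6a14 difference was not tested.

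The genes whose pattern over the 8 samples was most like that of Slc6a14 were Capn10, Twf2 and Anapc2. Their centred and scaled log2 levels lay at root mean square distances of 0.211, 0.242 and 0.244 from those of Slc6a14, among 11720 candidate genes. None of the 3 was called, with log2 fold changes of -0.24, -0.33 and -0.09 (DESeq2 adjusted p of 0.149, 0.0989 and 0.418).

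**Figure D2:**
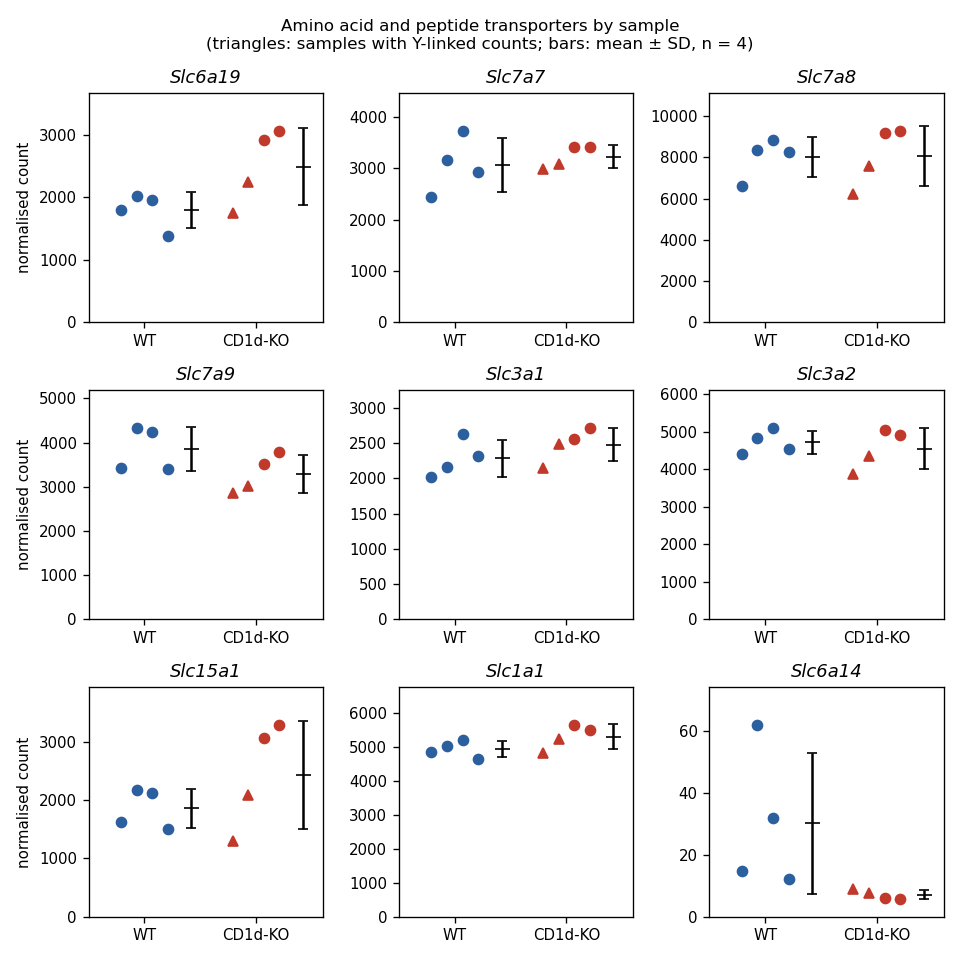
Normalised counts of the 9 transporters in each sample, with WT in blue, CD1d-KO in red, triangles for the samples with Y-linked counts and bars for the mean ± SD (n = 4), each panel on its own axis from 0. Slc6a14 is low in all CD1d-KO samples (5.76 to 8.94), whereas for Slc6a19 and Slc15a1 CD1d-KO 3 and 4 stand above every WT sample and CD1d-KO 1 and 2 do not both do so.

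The apical carriers of neutral amino acids and peptides were not called, and their CD1d-KO samples spread widely. Slc6a19, which is lost in Hartnup disorder, reached 1746, 2238, 2917 and 3052 normalised counts in the CD1d-KO samples and 1798, 2024, 1948 and 1385 in the WT samples. CD1d-KO 2, 3 and 4 exceeded every WT sample, and CD1d-KO 1 fell within the WT range. The means were 2488 ± 610 (SD, n = 4) and 1789 ± 285, a fold of 1.39 with a 95% interval from 1.11 to 1.74, or 0.48 ± 0.16 on the log2 scale (SE), at a DESeq2 adjusted p of 0.0722.

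Slc15a1 varied most among the abundant transporters within CD1d-KO. The CD1d-KO samples held 1294, 2084, 3074 and 3289 normalised counts of it and the WT samples 1630, 2184, 2119 and 1515. CD1d-KO 1 was the lowest of all 8 samples and CD1d-KO 3 and 4 were the highest. The means of 2435 ± 925 (SD, n = 4) and 1862 ± 339 gave a fold of 1.31, with a 95% interval from 0.844 to 2.03 and a log2 fold change of 0.39 ± 0.32 (DESeq2 adjusted p = 0.648).

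Whether Slc6a19 and Slc15a1 were called depended on CD1d-KO 1, which carried Y-linked counts as CD1d-KO 2 did. Without both samples, 2 CD1d-KO samples were compared with 4 WT samples, and 2.57% of 14473 tested genes were called. Slc6a19 then rose in CD1d-KO, with a log2 fold change of 0.74 ± 0.13 (DESeq2 adjusted p = 6.42e-06). Slc15a1 also rose, by 0.77 ± 0.14 (DESeq2 adjusted p = 7.58e-06), whereas Slc6a14 kept its direction at -2.38 ± 0.74 and was not called (DESeq2 adjusted p = 0.0517). Leaving out CD1d-KO 1 alone, with 3.22% of all genes called, likewise gave calls for Slc6a19 (0.61 ± 0.14, DESeq2 adjusted p = 0.000859) and Slc15a1 (0.60 ± 0.16, DESeq2 adjusted p = 0.0108). Leaving out CD1d-KO 2 alone gave neither call (DESeq2 adjusted p of 0.403 for Slc6a19 and 0.766 for Slc15a1). Among the CD1d-KO samples, the mean of samples 3 and 4 over that of samples 1 and 2 was 1.88-fold for Slc15a1 and 1.50-fold for Slc6a19. The same ratio was 1.34 for Slc7a8, 1.24 for Slc7a9, 1.21 for Slc3a2 and 0.702 for Slc6a14, and between 1.11 and 1.14 for the other 3 transporters. These pairs of CD1d-KO samples are described without a test, and no WT sample had Y-linked counts against which to compare CD1d-KO 1 and 2.

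Markers of mature enterocytes were set beside Slc6a19 and Slc15a1. Of 29, only Slc28a2, a nucleoside carrier, was called with all samples (log2 fold change -0.84 ± 0.13, DESeq2 adjusted p = 8.04e-08), and the list had a median of 0.01. The share called over all tested genes was 4.03%. The enterocyte score was lowest in CD1d-KO 1 and WT 4 (both -0.268) and highest in CD1d-KO 4 (0.221) and CD1d-KO 3 (0.165). Without the samples with Y-linked counts 3 of the 29 were called, with 2.57% of all genes called. The fatty acid binding protein Fabp2 and the trehalase Treh were called higher, by 0.81 and 0.54 on the log2 scale, while Slc28a2 stayed lower (-0.92). The part of enterocyte content in the Slc6a19 and Slc15a1 values was not tested.

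**Figure D3:**
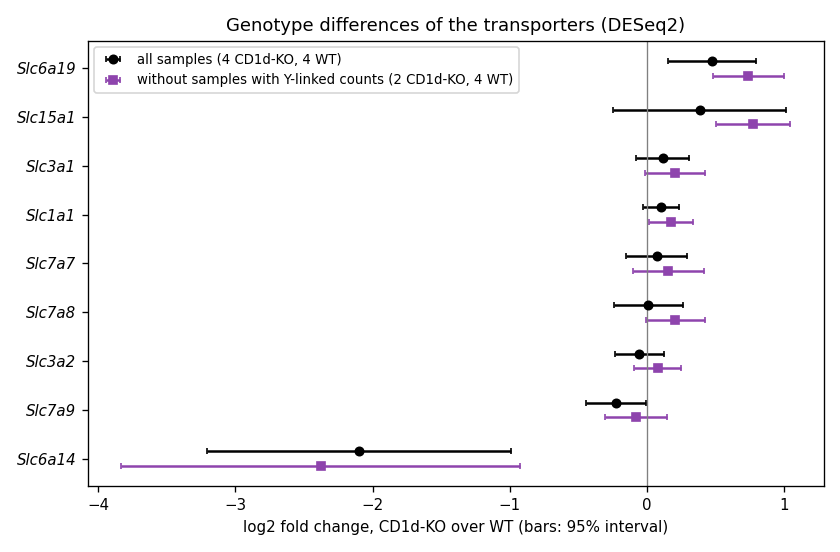
Log2 fold change (CD1d-KO over WT) of each transporter with its 95% interval by DESeq2, from all samples (black circles, 4 CD1d-KO and 4 WT) and without the samples with Y-linked counts (purple squares, 2 CD1d-KO and 4 WT). Slc6a14 lies at -2.10 and -2.38, Slc6a19 moves from 0.48 to 0.74 and Slc15a1 from 0.39 to 0.77, and the other 6 genes stay between -0.23 and 0.21.

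Slc1a1, the remaining apical carrier that works without a partner chain, varied little. It had normalised counts of 4815 to 5621 in CD1d-KO and 4638 to 5192 in WT, with 3 of 4 CD1d-KO samples above every WT sample. Its means were 5293 ± 357 (SD, n = 4) and 4924 ± 240, and the 95% interval of its fold ran from 0.979 to 1.18 (log2 fold change 0.10 ± 0.07, DESeq2 adjusted p = 0.515). Across the 8 samples Slc1a1, Slc6a19 and Slc15a1 had the most similar patterns among the transporters, with distances of 0.257 for Slc6a19 and Slc1a1, 0.351 for Slc15a1 and Slc1a1 and 0.39 for Slc6a19 and Slc15a1, on the scale used above. Slc7a8 and its heavy chain Slc3a2 lay almost as close, at 0.393, so closeness was not particular to these apical carriers. These distances share the samples, their size factors and the low values of CD1d-KO 1, and are descriptions.

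The heterodimeric exchangers were not called in any chain. Slc7a9, whose loss or that of Slc3a1 causes cystinuria, reached 2865, 3008, 3508 and 3788 normalised counts in the CD1d-KO samples and 3436, 4323, 4232 and 3402 in the WT samples. CD1d-KO 1 and 2 lay below every WT sample and CD1d-KO 3 and 4 within the WT range. The means of 3292 ± 430 (SD, n = 4) and 3848 ± 497 gave a fold of 0.855 with a 95% interval from 0.734 to 0.996 (log2 fold change -0.23 ± 0.11, DESeq2 adjusted p = 0.31).

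Slc3a1, its heavy chain, had normalised counts of 2153 to 2710 in CD1d-KO and 2022 to 2632 in WT (log2 fold change 0.12 ± 0.10, DESeq2 adjusted p = 0.657). On the basolateral side Slc3a2 had 3886 to 5058 against 4414 to 5093, with a fold interval from 0.851 to 1.09 (log2 fold change -0.05 ± 0.09, DESeq2 adjusted p = 0.874). Slc7a7, which is lost in lysinuric protein intolerance, had 2981 to 3416 against 2447 to 3721, with an interval from 0.900 to 1.23 (0.07 ± 0.11, DESeq2 adjusted p = 0.863). The groups overlapped for all 3. Slc7a8 had 6206 to 9264 against 6585 to 8819, with an interval from 0.846 to 1.20 (0.01 ± 0.13, DESeq2 adjusted p = 0.987), and both its lowest and its highest sample were CD1d-KO.

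Since a light chain needs its heavy chain, the balance of their transcripts was compared within each sample. It was taken as a ratio of counts per kilobase, which needs no size factor and does not measure protein. The ratio of Slc7a9 to Slc3a1 took the values 1.55, 1.41, 1.596 and 1.62 in the CD1d-KO samples and 1.97, 2.32, 1.87 and 1.71 in the WT samples. All CD1d-KO samples lay below all WT samples. The means were 1.54 ± 0.0964 (SD, n = 4) and 1.97 ± 0.258, a difference of -0.34 on the log2 scale (exact two-sided permutation test, p = 0.0286, the smallest that 70 assignments allow; Benjamini-Hochberg adjusted over 3 ratios, 0.0857). It therefore did not pass the adjustment, and without the samples with Y-linked counts the difference was -0.28. Exons of Slc3a1 overlap those of Prepl over 606 bases, 26.3% of its exon length, and counting used no strand, so its count is uncertain.

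The basolateral ratios overlapped between genotypes. Slc3a2 was the heavy chain in both, so neither ratio gives the balance of a single pair. The ratio of Slc7a7 to Slc3a2 averaged 0.840 ± 0.047 in CD1d-KO (SD, n = 4) against 0.762 ± 0.0853 in WT, a log2 difference of 0.15 (exact permutation test, p = 0.2, adjusted 0.3). The ratio of Slc7a8 to Slc3a2 was 1.29 ± 0.091 and 1.24 ± 0.103, a log2 difference of 0.06 (exact permutation test, p = 0.457, adjusted 0.457). Exons of Slc7a7 overlap those of Oxa1l over 228 bases, 9.1% of its length.

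**Figure D4:**
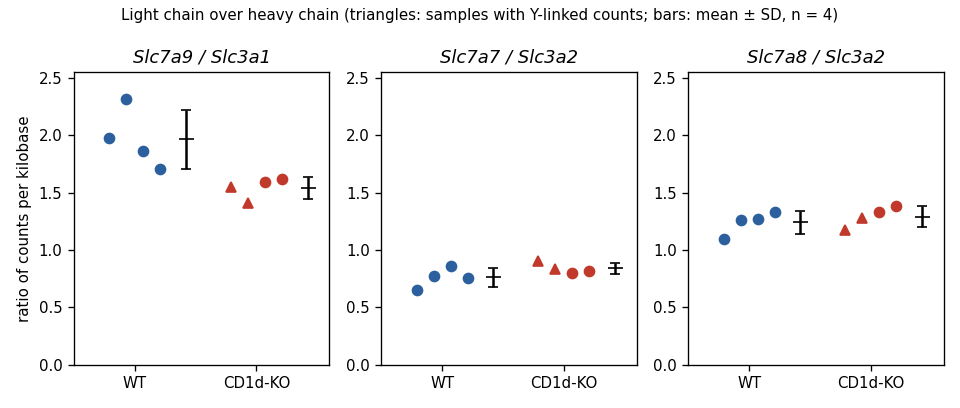
Ratio of light chain to heavy chain, in counts per kilobase on an axis from 0, for 3 pairs of transporter subunits, with WT in blue, CD1d-KO in red, triangles for samples with Y-linked counts and bars for the mean ± SD (n = 4). The Slc7a9 over Slc3a1 ratio runs from 1.41 to 1.62 in CD1d-KO and from 1.71 to 2.32 in WT, whereas the other pairs overlap.

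Other carriers of amino acids at the plasma membrane gave a context for the 9. Of 37 listed, 24 were tested, 3 were called higher in CD1d-KO and none lower, and their median log2 fold change was 0.14. Among all tested genes 1.65% were called higher and 2.38% lower. Slc7a2, a carrier of basic amino acids, averaged 580 ± 56.6 normalised counts in CD1d-KO (SD, n = 4) against 414 ± 63.3 in WT (log2 fold change 0.49 ± 0.12, DESeq2 adjusted p = 0.00526). Slc38a4, of the system A family, had 108 ± 15.0 and 68.7 ± 10.6 (0.65 ± 0.20, DESeq2 adjusted p = 0.0292). Slc6a6, the taurine carrier, had 10610 ± 248 and 9451 ± 433 (0.17 ± 0.05, DESeq2 adjusted p = 0.0432). None of the 3 was called without the samples with Y-linked counts (DESeq2 adjusted p from 0.259 to 0.539), and edgeR called none of the list. DESeq2 and edgeR each gave 7 genes of the list at an unadjusted p under 0.05. The share over all genes tested by DESeq2 was 15.3%. Per length the most abundant of the list were Slc6a6 at 135.2 TPM, the glutamine and neutral amino acid exchanger Slc1a5 at 133.5 TPM and Slc38a2, a system A carrier, at 104.2 TPM, and the last pair had log2 fold changes of 0.02 and 0.01. At 0 in all samples were Slc7a12, Slc7a13, Slc36a2 and Slc36a3.

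**Figure D5:**
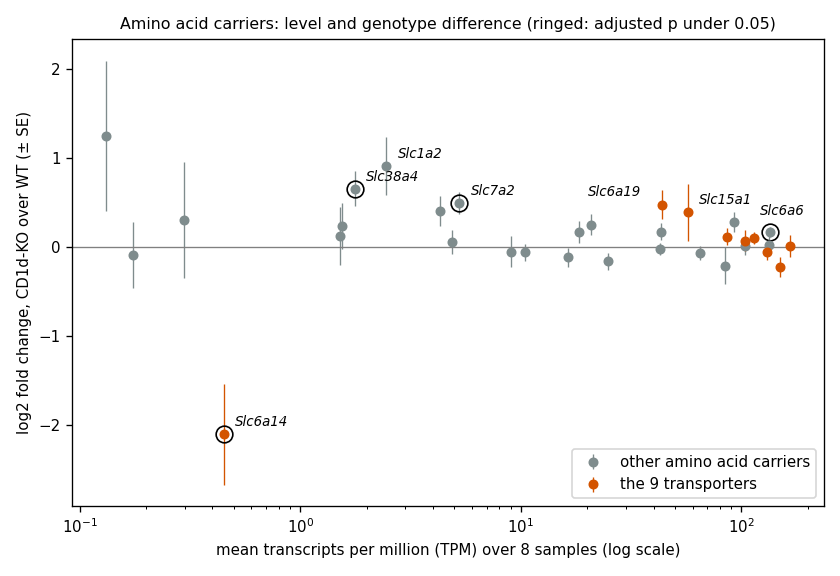
Log2 fold change (CD1d-KO over WT, bars ± SE) of the 9 transporters (orange) and of the tested other amino acid carriers (grey) against their mean level in TPM on a log axis, with rings around genes at an adjusted p under 0.05. Slc6a14 stands at -2.10 at the low end of the levels, while the ringed Slc38a4, Slc7a2 and Slc6a6 lie between 0.17 and 0.65.

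Peptide and lysosomal carriers, partners and stress genes showed few calls. Of 9 listed peptide and lysosomal carriers, 8 were tested and DESeq2 and edgeR each called 0, with 1 and 2 at an unadjusted p under 0.05. Of 15 partners, peptidases and ion pumps of amino acid uptake, DESeq2 and edgeR likewise called 0, with 3 and 2 at an unadjusted p under 0.05, and the median log2 fold change was 0.05. Over all genes tested by DESeq2, 15.3% had an unadjusted p under 0.05. Without the samples with Y-linked counts, 3 of the 15 partners, peptidases and pumps were called, all higher in CD1d-KO, with 2.57% of all genes called. They included the dipeptidase Dpep1 (log2 fold change 0.51, DESeq2 adjusted p = 0.0227) and the dipeptidyl peptidase Dpp4 (0.28, DESeq2 adjusted p = 0.0299). Of 24 genes of the response to amino acid shortage, 23 were tested and 1 was called, Cth, an enzyme that makes cysteine (0.28 ± 0.09, DESeq2 adjusted p = 0.0354), with a median of -0.04. This share is near the 4.03% called over all tested genes.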

How the data were processed

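The authors deposited raw counts of read pairs per gene, with no normalization. Per the file headers, featureCounts 1.6.4 counted primary alignments over mm10 refGene exons without strand and left out pairs spanning several genes, while the study's methods name HISAT2 and GRCm39. Libraries were poly(A) selected. Counts were compared between genotypes by DESeq2 1.42.0 (R 4.3.3) with genotype as the only term. The study also names DESeq2 between genotypes and does not state its model terms. Adjusted p-values covered 15446 genes above a mean normalised count of 2.41. TPM used the counts and exon lengths of the table. List scores averaged log2(normalised count + 1), centred per gene. Chi-square per degree of freedom between replicates was 10.22 to 39.51 over 12857 genes, so no replicate was a copy of another. On simulated counts for this comparison over 19088 genes, 100% of genes changed by 1.0 log2 and 42% of those changed by 0.5 were recovered. In the same run 15 unchanged genes were called. The changed genes had mean normalised counts of at least 50 and the dispersion was set by hand. These shares therefore do not give the power for Slc6a14 or for transporters that vary more. Members and lists were chosen with earlier results of these data known. Named genes were the 9 transporters, the called genes of each list discussed (the 6 of smallest p above 6), the 3 most abundant other carriers and the 3 genes most like a called transporter. Genes named outside this rule (Dpep1, Dpp4, Fabp2, Treh, Nnt, Prepl, Oxa1l and markers absent or at 0) were chosen after their values were seen. Marker lists of crypt, goblet, tuft, enteroendocrine, proximal and distal cells had 0 genes called, and Paneth had Defa17 and Lyz1 higher. Intervals and counting errors cover counting or model error only. A gene of the lists is not reported here. All 9 members matched the promoter table. Alternatives were edgeR 4.0.16, TMM factors, size factors without the 50 most abundant genes, 10 counts in 4 samples, no independent filter, a replicate block, the stomach score, leaving out samples with Y-linked counts and leaving out each sample.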

Additional observations from a re-analysis of the deposited data

How the results depend on the processing

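The 622 genes called became 228 by edgeR, 101 with the stomach score as a covariate, 372 without the samples with Y-linked counts and 323 to 646 when each sample was left out, with 323 without CD1d-KO 2, 385 without WT 2 and 406 without WT 1. The 1 transporter called became 0 by edgeR, with the stomach score and with the replicate block, 2 without the samples with Y-linked counts and 0 to 3 over single samples left out, with 3 without CD1d-KO 1 and 0 without WT 2. The 4 genes called in the wider lists became 0 by edgeR and with the stomach score, and 1 to 5 over single samples left out, with 1 without CD1d-KO 2 or WT 3 and 2 without WT 1 or WT 2. Changes of sign occurred only in transporters that were not called. With the stomach score the log2 fold change was 0.041 for Slc7a9 and 0.15 for Slc3a2, and Slc3a2 came to 0.079 once samples with Y-linked counts were left out. Over single samples left out it ran from -0.109 to 0.0165 for Slc3a2 (positive without CD1d-KO 1), from -0.073 to 0.12 for Slc7a8 (negative without CD1d-KO 3, CD1d-KO 4 or WT 1) and from -0.023 to 0.179 for Slc7a7 (negative without WT 1). The cause of these changes was not tested, except that fewer samples were compared where some were left out.

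Replicate numbers are shared between genotypes, but deviations of same-numbered samples correlated at 0.103, 0.011, 0.147 and -0.04, and only samples 1 and 3 correlated best with their own number, so the numbers were not read as pairs. With the replicate block 569 genes were called, and Slc6a14 had a log2 fold change of -1.85 ± 0.61 (DESeq2 adjusted p = 0.0613). For the subunit ratios the block leaves the difference of means as it is (-0.34 for Slc7a9 over Slc3a1), and its exact paired permutation p of 0.125 is the smallest that 4 pairs allow, so this test could not pass the threshold. Depth limits Slc6a14, with 6 to 59 counts per library.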
